A study of Mus musculus with 15 samples.

Results

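Nuclei of mouse ventricular muscle, sorted for the protein Pcm1 and sequenced after depletion of ribosomal RNA, were compared between the genotype labels Pgr_KO and Pgr_WT in the 9 of 15 libraries with the least signal of other cardiac cells. The protein Pcm1, named for pericentriolar material, gathers at the nuclear envelope of cardiomyocytes and so serves to sort their nuclei. The libraries were chosen by the measured level of Pecam1, an adhesion molecule of endothelial cells, which had to lie below 20 CPM (counts scaled to the library total). That left 2 female and 2 male libraries labelled KO (replicates 3 and 4 of each sex) and 2 female (replicates 2 and 3) and 3 male (replicates 2, 3 and 4) libraries labelled WT. Its values are given only as a description: it ran from 2.26 CPM (WT male 3) to 7.84 CPM (WT male 2) inside the limit, and from 38.6 CPM (KO female 1) to 87.8 CPM (KO female 2) outside it. The labels name 2 strains and no treatment. Age, the making of the Pgr_KO strain and any pooling of animals are not given in the sources used here, and no label says that replicates are separate animals, so p-values measure only the spread between these samples.

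The progesterone receptor, encoded by Pgr, is a nuclear receptor that moves on to DNA once it has bound progesterone and then recruits coactivators or corepressors to nearby genes. It shares its DNA element, the hormone response element, with the glucocorticoid, androgen and mineralocorticoid receptors. It is best known for its work in the uterus, ovary and mammary gland, and the series title places it in the maturation of the heart, with an effect that depends on sex.

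Reads of Pgr ran against the genotype labels in every one of the 9 libraries. They numbered 487 and 500 in the female and 429 and 981 in the male libraries labelled KO. Under the WT label there were 7 and 0 reads in the female libraries and 7, 0 and 0 in the male ones. Higher under the KO label therefore means higher where Pgr RNA was read, and every direction below is by label alone. The 14 Pgr reads under the WT label came from WT female 2 and WT male 2. The same pair of libraries held reads of the other sex. The Y-linked genes of WT female 2 stood at 2.85% of their male mean, against at most 0.095% in the other 3 female libraries, and Xist of WT male 2 stood at 3.38% of its female mean, against at most 0.0687% in the other 4 male libraries. The number of called genes and the gene lists were also taken without these 2 libraries. Total counts ran from 28.6 to 139.4 M per library.

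Cardiomyocyte markers were high in all 9 libraries. The summed level of 15 cardiomyocyte markers, such as titin and the cardiac myosin heavy chain, was 93530 to 109400 CPM under the KO label and 89790 to 110500 CPM under the WT label (levels here and below are CPM on library sizes scaled by edgeR's TMM method). Pcm1 itself stood at 169.8 to 213 CPM and 161 to 234 CPM. All 32 fibroblast markers and 26 of the 27 endothelial markers other than Pecam1, which chose the libraries, were lower in each of the 9 libraries than in each of the other 6. The exception was Prox1, at 160 to 189 CPM in the 9 libraries and 135 to 190 CPM in the other 6. None of these fibroblast and endothelial markers was at 0 in all 9 libraries. Markers of other cells were less apart. By the same measure 13 of 15 epicardial, 11 of 18 mural and 15 of 28 leukocyte markers were lower. So were 7 of 11 adipocyte, 5 of 12 Schwann cell and 4 of 8 erythroid markers. The mural sum overlapped, at 1587 to 2171 CPM in the 9 libraries and 1422 to 1823 CPM in the other 6. Most of this sum came from Myocd and Abcc9, which are not among the 11 lower mural markers. Added together, these genes gave 1470 to 1980 CPM inside the 9 libraries and 1160 to 1600 CPM outside them. The overlap of the mural sum therefore mainly describes Myocd and Abcc9, and says little about the 11 lower mural markers. In bulk nuclei, fewer cells of a type and less RNA per cell cannot be told apart.

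**Figure D1:**
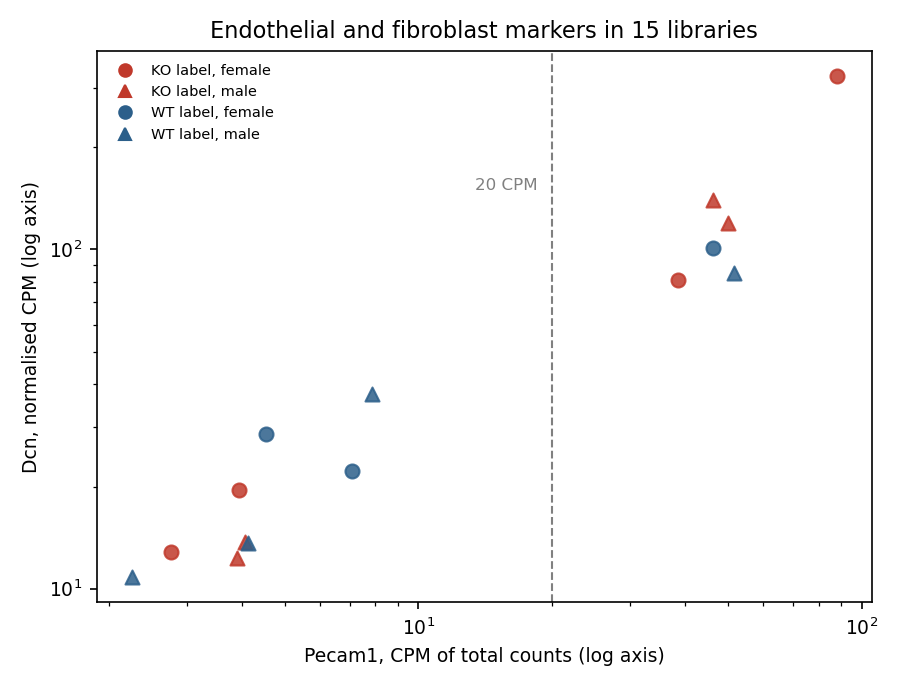
Pecam1 (x axis, CPM of total counts) against the fibroblast gene Dcn (y axis, CPM on TMM library sizes) in 15 libraries, both on log axes, with circles for female and triangles for male libraries and red for the KO and blue for the WT label. The 9 libraries left of the dashed line at 20 CPM are those analysed, and WT male 2 has the highest Pecam1 and Dcn among them.

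The remaining reads of fibroblast, endothelial, leukocyte and epicardial markers were lower on average under the KO label, a difference that did not pass. The summed fibroblast markers were 201, 251, 187 and 234 CPM in the libraries labelled KO (female 3 and 4, male 3 and 4, the order used throughout). They were 313, 338, 555, 182 and 230 CPM in those labelled WT (female 2 and 3, male 2, 3 and 4). WT female 2, WT female 3 and WT male 2 lay above every library labelled KO, and the other 2 did not. The endothelial sum without Prox1 ran from 47.4 to 76.5 CPM with the KO label and from 49.3 to 148 CPM with the WT label, and the leukocyte sum from 27.6 to 33.6 and from 23.4 to 78.2 CPM. An exact permutation test within sex was used (two-sided, 60 arrangements, 12 measures of the libraries). In it the fibroblast, endothelial (with Prox1), leukocyte and epicardial sums did not pass (exact permutation adjusted p = 0.399 for each). Member by member, 29 of 30 tested fibroblast markers (median log2 fold change -0.76), 26 of 27 endothelial markers (-0.58), 17 of 19 leukocyte markers (-0.84) and 7 of 7 epicardial markers (-0.82) had values below 0, where 50.8% of all tested genes did, and none passed the test. An unadjusted p below 0.05 with a lower value was reached by 10 of the 19 leukocyte, 6 of the 30 fibroblast, 3 of the 27 endothelial and 2 of the 7 epicardial markers, beside 2.09% of all genes. In females alone it was reached by 14 of 19 leukocyte, 18 of 30 fibroblast and 18 of 26 endothelial markers, beside 2.70% of all genes tested there. Without WT female 2 and WT male 2 the medians were -0.19 for fibroblast, -0.37 for endothelial, -0.40 for leukocyte and -0.17 for the 5 epicardial markers tested then. Mural cell markers were below 0 in 11 of 15 (median -0.18), 4 of them with an unadjusted p below 0.05. Schwann cell markers were below 0 in 4 of 5 (-0.08), adipocyte in 2 of 4 (0.02) and erythroid in 1 of 6 (0.21). The adipocyte sum was higher under the KO label (mean 83.2 against 70.2 CPM, exact permutation p = 0.05, adjusted p = 0.399). Most of it was Pparg, with means of 72.6 and 57.1 CPM. Adipoq stood at no more than 0.0439 CPM in any of the 9 libraries, so this sum is no measure of adipocytes.

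Between the labels, 3 genes of 15857 passed the test (0.0189% of those tested, edgeR quasi-likelihood test with a term for sex, Benjamini-Hochberg adjusted p below 0.05). Pgr rose under the KO label (1 gene, 0.00631%), and Pdgfd and Adamts1 fell (2 genes, 0.0126%). Pdgfd encodes a platelet-derived growth factor that acts on the PDGF receptor of fibroblasts and mural cells. Adamts1 encodes a secreted protease that cuts proteoglycans such as versican, and in the ovary it is a known target of the progesterone receptor. An unadjusted p below 0.05 was reached by 526 genes (3.32%), 195 higher (1.23%) and 331 lower (2.09%), where 793 would be reached in the absence of any difference. The median log2 fold change over all tested genes was -0.00, with 7794 genes (49.2%) above and 8063 (50.8%) below 0.

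The promoters of the 3 called genes are shown because these genes carry the difference between the labels. Each is the 300 bases from 250 before to 50 after the start that RefSeq lists on GRCm38.p6, read on the gene's own strand. That of Pgr is chr9:8899583-8899882 on the plus strand, that of Pdgfd chr9:6168236-6168535 on the plus strand and that of Adamts1 chr16:85803064-85803363 on the minus strand. Capitals mark matches, on either strand, to the GC box GGGCGG and the TATA box TATAAA.
Pgr: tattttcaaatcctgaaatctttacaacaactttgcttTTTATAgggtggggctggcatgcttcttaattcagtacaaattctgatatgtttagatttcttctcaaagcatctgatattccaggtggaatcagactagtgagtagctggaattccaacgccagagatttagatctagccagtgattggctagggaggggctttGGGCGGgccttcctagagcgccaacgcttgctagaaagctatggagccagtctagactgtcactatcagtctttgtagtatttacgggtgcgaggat
Pdgfd: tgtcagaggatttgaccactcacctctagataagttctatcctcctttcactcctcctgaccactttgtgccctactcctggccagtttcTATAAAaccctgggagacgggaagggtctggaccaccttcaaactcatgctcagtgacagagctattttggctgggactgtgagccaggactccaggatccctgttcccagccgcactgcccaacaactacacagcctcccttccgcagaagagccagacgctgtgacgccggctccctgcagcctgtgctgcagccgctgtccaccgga
Adamts1: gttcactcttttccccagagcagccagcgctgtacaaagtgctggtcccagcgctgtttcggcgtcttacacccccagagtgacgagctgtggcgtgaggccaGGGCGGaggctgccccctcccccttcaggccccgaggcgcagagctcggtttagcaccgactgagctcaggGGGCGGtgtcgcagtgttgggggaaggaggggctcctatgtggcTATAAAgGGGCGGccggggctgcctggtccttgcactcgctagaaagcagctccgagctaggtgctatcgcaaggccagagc
The half-site TGTTCT of the hormone response element was searched on both strands of the same windows and matched none of the 3, while 6226 of 32817 RefSeq promoters of this length hold it. TATAAA is in each of the 3 and in 13.6% of all promoters. It begins 32 bases before the start of Adamts1, 160 before that of Pdgfd and 212 before that of Pgr. GGGCGG is present 3 times in the Adamts1 window, once in that of Pgr and not in that of Pdgfd, against 35.6% of all promoters with a match. A match describes these letters and is no evidence of binding.

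Pgr (chromosome 9, 8899833 to 8968611, plus strand) stood at 12.4 and 10.6 CPM in the female and 6.80 and 7.28 CPM in the male libraries labelled KO. In the libraries labelled WT it stood at 0.263 and 0 CPM in females and at 0.166, 0 and 0 CPM in males. The groups did not overlap, and both female libraries labelled KO lay above both male ones. The mean was 9.27 ± 2.68 CPM (SD, n = 4) under the KO label and 0.0857 ± 0.122 CPM (SD, n = 5) under the WT label. Pooled over the libraries, 2397 reads against 14 gave a ratio of 152 (95% interval 90.5 to 279, counting error only). Its log2 fold change was 7.11 ± 0.63 (SE, edgeR adjusted p = 0.00330).

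A pair of transcripts beside Pgr had too few reads to enter the test and were higher in the same libraries. Gm32014, which overlaps Trpc6 on the opposite strand before the start of Pgr, had 143 reads under the KO label against 5, a ratio of 25.4 (95% interval 10.6 to 79.5). Gm16485, just after the end of Pgr on the same strand, had 67 reads against 1, a ratio of 59.6 (10.3 to 2390). Both intervals cover counting error only, and the library kit is directional. Whether reads were counted by strand is not stated in the labels, so reads of Gm32014 and Trpc6 may be mixed.

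Pdgfd (chromosome 9, 6168584 to 6378850, plus strand) had the clearest difference after Pgr. Its level was 44.9, 30.6, 41.5 and 41.8 CPM in the libraries labelled KO. Under the WT label it was 92.0, 122, 114, 113 and 152 CPM. The highest value under the KO label is less than the lowest under the WT label in both sexes. The means were 39.7 ± 6.25 CPM (SD, n = 4) and 119 ± 21.5 CPM (SD, n = 5), and the log2 fold change was -1.57 ± 0.15 (SE, edgeR adjusted p = 0.00386). It was -1.51 ± 0.25 in females and -1.62 ± 0.18 in males when each sex was fitted alone. The fall was as large with the summed fibroblast and endothelial markers other than Prox1 as a term (-1.59, edgeR adjusted p = 0.0243) and without WT female 2 and WT male 2 (-1.67, adjusted p = 0.0131). Without KO male 4 it was -1.55, with an edgeR adjusted p = 0.0540.

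Adamts1 (chromosome 16, 85793827 to 85803113, minus strand) stood at 6.53, 7.02, 4.44 and 4.80 CPM in the libraries labelled KO and at 13.1, 12.3, 10.8, 8.52 and 8.92 CPM in those labelled WT. The groups did not overlap, and within each label the female libraries lay above the male ones. The means were 5.70 ± 1.27 CPM (SD, n = 4) and 10.7 ± 2.02 CPM (SD, n = 5), with a log2 fold change of -0.99 ± 0.13 (SE). The call lies at the threshold, with an edgeR adjusted p = 0.0499, and it was lost when any single library was left out (adjusted p = 0.0570 to 0.470). With the same marker term the value was -0.88 with an edgeR adjusted p = 0.383, and without WT female 2 and WT male 2 it was -0.89 with 0.239.

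**Figure D2:**
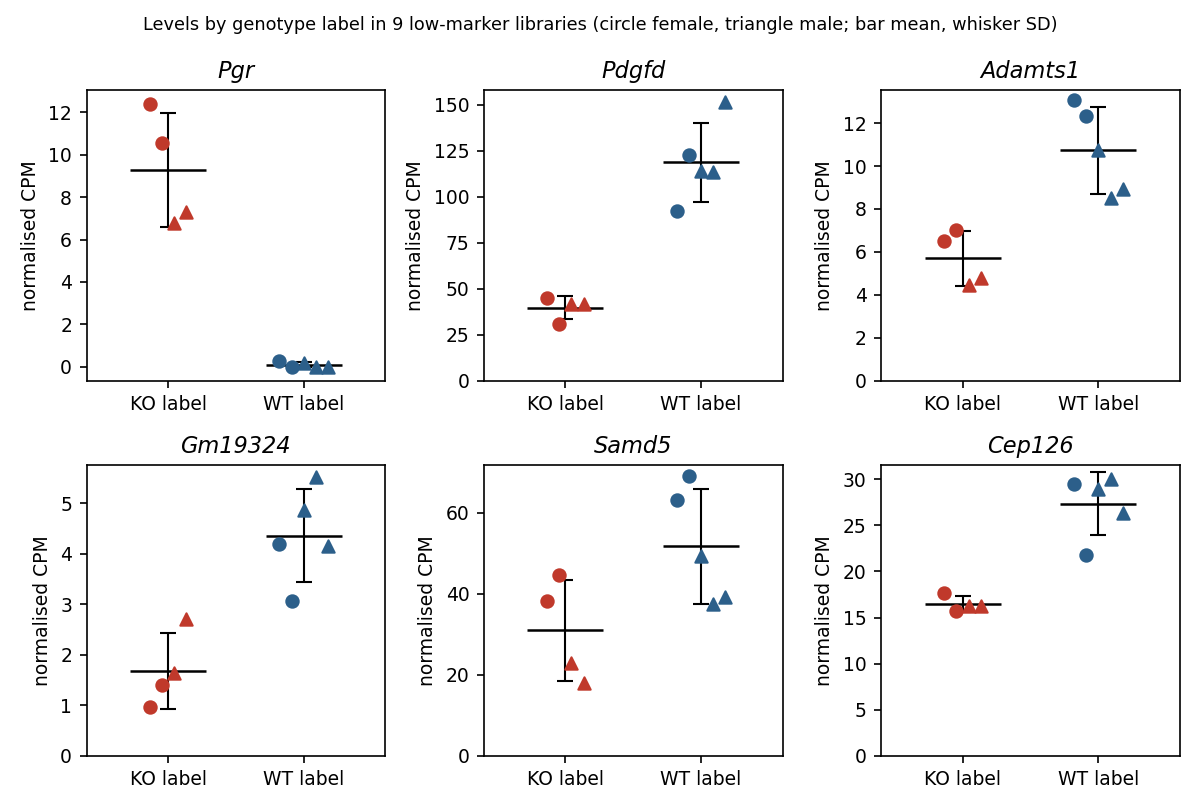
Levels (y axes, CPM on TMM library sizes, each from 0) of the 3 called genes and of Gm19324, Samd5 and Cep126 by genotype label in the 9 libraries, with circles for female and triangles for male libraries, black lines for the mean and whiskers for the SD. The labels do not overlap for any gene but Samd5, where the female libraries labelled KO lie among the male libraries labelled WT.

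The next genes by p did not pass, and Gm19324, Samd5 and Cep126 are named from among them after their values were seen. Gm19324, a transcript without a named product on chromosome 9, was at 0.969, 1.40, 1.63 and 2.72 CPM under the KO label and at 4.20, 3.07, 4.86, 5.52 and 4.16 CPM under the WT label (log2 fold change -1.35 ± 0.22 SE, edgeR adjusted p = 0.222). Cep126, whose protein sits at the centrosome and the base of cilia, was at 17.7, 15.7, 16.2 and 16.3 CPM against 29.5, 21.8, 29.0, 30.1 and 26.3 CPM (-0.74 ± 0.13, edgeR adjusted p = 0.285). In both genes the labels did not overlap. Samd5, a small protein with a sterile alpha motif, was at 38.2 and 44.7 CPM in the female and 22.8 and 18.0 CPM in the male libraries labelled KO, against 63.2 and 69.1 CPM and 49.4, 37.5 and 39.2 CPM under the WT label. The labels are apart within each sex but overlap across the sexes (log2 fold change -0.89 ± 0.14 SE, edgeR adjusted p = 0.222). DESeq2 called all 3, with adjusted p = 1.74e-05 for Gm19324, 5.19e-05 for Samd5 and 0.000388 for Cep126. Near Samd5 on chromosome 10 lie further unnamed transcripts, picked after their values were seen. These were Gm48751 (-0.95 ± 0.20), Gm9930 (-0.81 ± 0.18), Gm48755 (-0.87 ± 0.22) and Gm48748 (-0.81 ± 0.23), and none passed (edgeR adjusted p = 0.974 for each). In the libraries outside the 9 their values were also below 0. Over all genes, the libraries of the labels did not overlap in 122 (0.769%), 70 higher (0.441%) and 52 lower (0.328%) under the KO label.

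Pgr, Pdgfd, Gm19324 and Cep126 lie near each other on chromosome 9. Pdgfd ends 2.52 Mb before the start of Pgr, Cep126 0.766 Mb and Gm19324 0.715 Mb before it. Among other genes between them, 3 that are named after their values were seen lay near 0. Dync2h1, a motor of ciliary transport, had a log2 fold change of -0.08 ± 0.11 (SE), the apoptosis inhibitor Birc2 -0.06 ± 0.13 and Yap1, the transcriptional effector of the Hippo pathway, 0.05 ± 0.10. Arhgap42, the nearest tested gene after Pgr, stood at -0.17 ± 0.14, and the channel gene Trpc6, the nearest before Pgr, at -0.34 ± 0.34. Within 3 Mb of Pgr 3 of 15 tested genes had an unadjusted p below 0.05, and within 20 Mb 7 of 149 (4.70%, beside 3.32% of all genes), of which 82 were below 0. The median was -0.02 within 20 Mb and -0.13 over the 57 tested genes within 10 Mb, of which 44 were below 0. The labels are those of 2 strains, so the genotype and any other difference between the strains cannot be told apart. This holds at this locus and at that of Samd5.

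**Figure D3:**
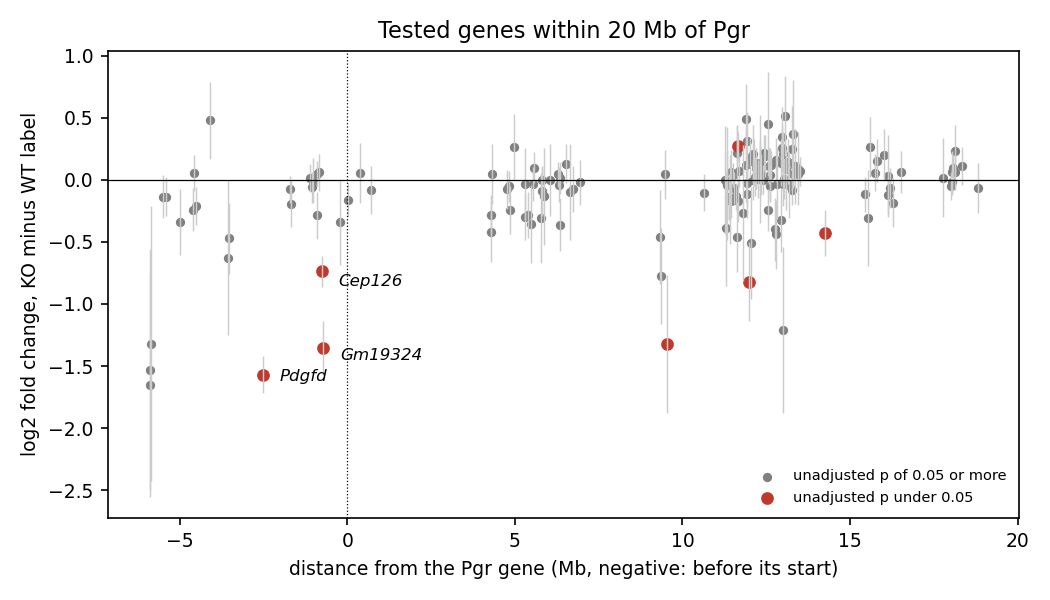
Log2 fold change, KO minus WT label (y axis, bars show the SE), of the 149 tested genes within 20 Mb of Pgr against their distance from it (x axis, Mb), with red for an unadjusted p below 0.05. Pdgfd, Gm19324 and Cep126, all before the start of Pgr, lie among genes near 0.

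Among the receptors themselves only Pgr passed. Of 28 tested steroid and nuclear hormone receptors 15 were above and 13 below 0 (median 0.02). An unadjusted p below 0.05 was reached by 2 higher and 2 lower, beside 1.23% and 2.09% of all genes. Paqr7, a membrane receptor for progesterone, was at 6.78, 7.10, 6.65 and 7.05 CPM under the KO label. Under the WT label it was at 7.13, 10.1, 7.87, 8.82 and 12.7 CPM. The labels did not overlap, though KO female 4 and WT female 2 were almost level, and the log2 fold change of -0.44 ± 0.16 (SE) did not pass (edgeR adjusted p = 0.974). Pparg, a receptor that drives lipid storage, stood at 0.34 ± 0.13, and Nr2f2, an orphan receptor of atrial and venous cells, at -1.05 ± 0.46 with levels of only 0.178 to 1.23 CPM.

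Genes known as targets of the progesterone receptor in the uterus lay mostly below 0 in the 9 libraries. Of 16 tested targets 4 were above and 12 below 0 (median -0.27). An unadjusted p below 0.05 was reached by 3, all lower, beside 2.09% of all genes, and none passed. Cited2, which binds the coactivators CBP and p300, was at 5.86, 4.27, 3.63 and 5.27 CPM under the KO label and at 7.58, 6.70, 7.78, 6.81 and 7.54 CPM under the WT label. The labels did not overlap (log2 fold change -0.64 ± 0.16 SE, edgeR adjusted p = 0.974). Sgk1, a kinase induced by steroids that acts on ion transport, stood at -1.004 ± 0.33, with levels from 0.382 to 0.824 CPM with the KO label and from 0.626 to 1.47 CPM with the WT label. Outside the 9 libraries the fold changes of Cited2 and Sgk1 were 0.58 ± 0.25 and 0.22 ± 0.37, the opposite direction. Glucocorticoid-responsive genes, which answer to the same DNA element, were below 0 in 25 of 31 (median -0.19), with Gadd45b, a stress sensor, at -0.81 ± 0.29 and none passing. Without WT female 2 and WT male 2 the counts below 0 were 11 of 16 and 22 of 31, beside 50.2% of all genes tested then. With the marker term used for Pdgfd they were 11 of 16 (median -0.17) and 19 of 31 (median -0.09). In the other 6 libraries, where Pgr was also read under the KO label, the medians were 0.04 for the uterine targets and 0.12 for the glucocorticoid-responsive genes.

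Among contractile genes no member passed. Of 27 tested sarcomere genes 21 were above 0 (median 0.12), but 14 of 27 without WT female 2 and WT male 2 (median 0.01, 49.8% of all genes above 0). Each sex fitted alone had 7 of 27 above 0 in females (53.0% of all genes) and 21 of 27 in males (47.9% of all genes). Myot, a protein of the Z disc, was the 1 sarcomere gene with an unadjusted p below 0.05, at -0.68 ± 0.27 (SE). It ranged from 15.7 to 25.8 CPM under the KO label and from 21.6 to 47.8 CPM under the WT label, and the ranges overlap. Fetal and stress-induced cardiac genes were above 0 in 10 of 21 (median -0.01), with the slow troponin T gene Tnnt1 at 0.57 ± 0.24. By sex these were above 0 in 7 of 21 in females (median -0.24) and 12 of 21 in males (median 0.23). Genes that switch around birth were above 0 in 15 of 31 (median -0.01). Of 32 calcium-handling genes none had an unadjusted p below 0.05. Of 30 potassium, sodium and pacemaker channels 4 did, all lower, beside 2.09% of all genes. Among them was Kcnj2, the inward rectifier that sets the resting potential. Kcnj2 was at 136, 99.6, 92.4 and 88.9 CPM under the KO label and at 157, 109, 154, 142 and 124 CPM under the WT label. The labels overlap, and its log2 fold change was -0.44 ± 0.17 (SE). Dpp6 and Kcna4, a partner and a subunit of transient outward channels, stood at -0.58 ± 0.22 and -0.36 ± 0.15. Without WT female 2 and WT male 2 none of the 30 channel genes had an unadjusted p below 0.05 (15 above and 15 below 0). In males alone 6 higher and 3 lower had one, beside 3.56% and 4.72% of all genes tested there.

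No gene of the fuel pathways passed. Of 39 tested genes of fatty acid oxidation 31 were below 0 (median -0.10), and none had an unadjusted p below 0.05. Glycolysis genes were above 0 in 14 of 25 (median 0.05), and genes of pyruvate use and the tricarboxylic acid cycle in 17 of 30 (median 0.02). Without WT female 2 and WT male 2 the counts were 10 of 25 (median -0.05) and 11 of 30 (median -0.02). The glycolysis genes above 0 numbered 4 of 25 in females (median -0.11) and 19 of 25 in males (median 0.21). Slc2a4, the insulin-responsive glucose transporter, was at 143, 137, 134 and 169 CPM under the KO label. Under the WT label it was at 188, 204, 155, 167 and 214 CPM. KO male 4 lay above WT male 2 and WT male 3, and the log2 fold change of -0.36 ± 0.12 (SE) did not pass (edgeR adjusted p = 0.974). The lactate transporter Slc16a1 stood at -0.38 ± 0.15, and Pdp1, the phosphatase that switches on pyruvate dehydrogenase, at -0.46 ± 0.18. Nuclear genes of oxidative phosphorylation were 32 above and 30 below 0 (median 0.01), and 23 above and 39 below without WT female 2 and WT male 2. Fitted by sex they were 7 above and 55 below 0 in females (median -0.15) and 42 above and 20 below in males (median 0.13). Genes of cholesterol and fatty acid synthesis were below 0 in 23 of 32 (median -0.07). They were led by the desaturases Fads2 (-1.13 ± 0.43), Scd1 (-0.71 ± 0.28) and Scd2 (-0.55 ± 0.22). Fads2 was at only 0.204 to 0.379 CPM under the KO label and 0.211 to 1.07 CPM under the WT label. Scd1 was at 0.438 to 1.33 CPM in the 9 libraries. WT male 2 held the highest Fads2 and Scd2 of the 9 libraries, and WT female 3 the highest Scd1.

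Transcripts of the mitochondrial genome lay below 0 in females and mostly above 0 in males. All 12 tested were below 0 in the fit of 9 libraries (median -0.41). An unadjusted p below 0.05 was reached by 3, beside 2.09% of all genes, and none passed. Fitted alone, the females had 12 of 12 below 0 (median -1.09, 47.0% of all genes), 8 with an unadjusted p below 0.05, beside 2.70% of all genes tested there. The males had 4 of 13 below 0 (median 0.16, 52.1% of all genes). mt-Nd4, a subunit of complex I, is named after its values were seen. It was at 24.2 and 35.9 CPM in the female libraries labelled KO and at 72.0 and 78.5 CPM in those labelled WT. In the male libraries it was at 74.2 and 73.6 CPM under the KO label and at 48.9, 47.9 and 79.7 CPM under the WT label. At mt-Nd4 only the 2 female libraries labelled KO lay below all others, as at mt-Nd6. At mt-Co1 and mt-Rnr2 they did not. There KO female 4, at 432 and 2212 CPM, lay above both male libraries labelled KO (413 and 404, 2055 and 1942 CPM). For mt-Nd4 the difference of the label effect between females and males was -1.64 ± 0.34 (SE, edgeR adjusted p = 0.811), and DESeq2 called it. The share of all reads from the mitochondrial genome was 0.254% to 0.410% under the KO label and 0.391% to 0.619% under the WT label (exact permutation p = 0.117, adjusted p = 0.399 over the 12 measures). In the other 6 libraries the median of these transcripts was 0.93.

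Stress and signalling genes gave smaller groups. Genes of the unfolded protein response were below 0 in 21 of 24 (median -0.17), with the co-chaperone Dnajb9 at -0.63 ± 0.27, the degradation factor Herpud1 at -0.41 ± 0.18 and Hspa5, the main chaperone of the endoplasmic reticulum, at -0.38 ± 0.18, and none passed. WT female 2 held the highest Dnajb9 and Hspa5 of the 9 libraries, at 23.8 and 158 CPM. Without it and WT male 2 the count was still 21 of 24, and the median was -0.06. Ribosomal protein genes were below 0 in 45 of 53 (median -0.12), 50 of 53 in females and 21 of 53 in males, and without WT female 2 and WT male 2 in 43 of 53 (median -0.06). Interferon-stimulated genes were below 0 in 22 of 30 (median -0.26), with the antigen-presentation genes H2-K1 at -0.77 ± 0.30 and B2m at -0.50 ± 0.21, and Rtp4 at 0.43 ± 0.16. Without WT female 2 and WT male 2 the count was 21 of 30 (median -0.15). Leukocyte and endothelial markers were also below 0, as given above, and with the marker term used for Pdgfd the interferon-stimulated genes were below 0 in 19 of 30 (median -0.03). Cell cycle genes were below 0 in 21 of 31 (median -0.20), with Ccnd2 at -0.32 ± 0.11, Ccne2 at -0.65 ± 0.23 and Top2a, at no more than 0.688 CPM in any library, at -1.42 ± 0.53. Without WT female 2 and WT male 2 they were 15 above and 17 below 0 of 32 (median -0.04), and with the marker term 13 above and 18 below of 31 (median -0.02).

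Immediate early genes went both ways, 12 above and 16 below 0 of 28 (median -0.07). Dusp5, a nuclear phosphatase that turns off ERK, was at 10.2, 11.1, 14.6 and 17.4 CPM under the KO label and at 7.58, 8.81, 9.91, 10.04 and 9.23 CPM under the WT label. The labels did not overlap, by a narrow gap between KO female 3 and WT male 3 (log2 fold change 0.55 ± 0.12 SE, edgeR adjusted p = 0.974). Nr4a1, an orphan receptor induced by calcium and stretch, was at 6.42, 3.36, 29.2 and 26.4 CPM against 2.93, 3.45, 12.8, 15.9 and 6.64 CPM (0.97 ± 0.27). Every male library lay above every female one, and the labels overlap. Ier3, an early gene of stress responses, stood at -0.55 ± 0.21. Core clock genes were below 0 in 14 of 20 (median -0.09), with the repressor Cry1 at -0.59 ± 0.17, and in 16 of 20 without WT female 2 and WT male 2. The labels do not state the time of day of collection.

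**Figure D4:**
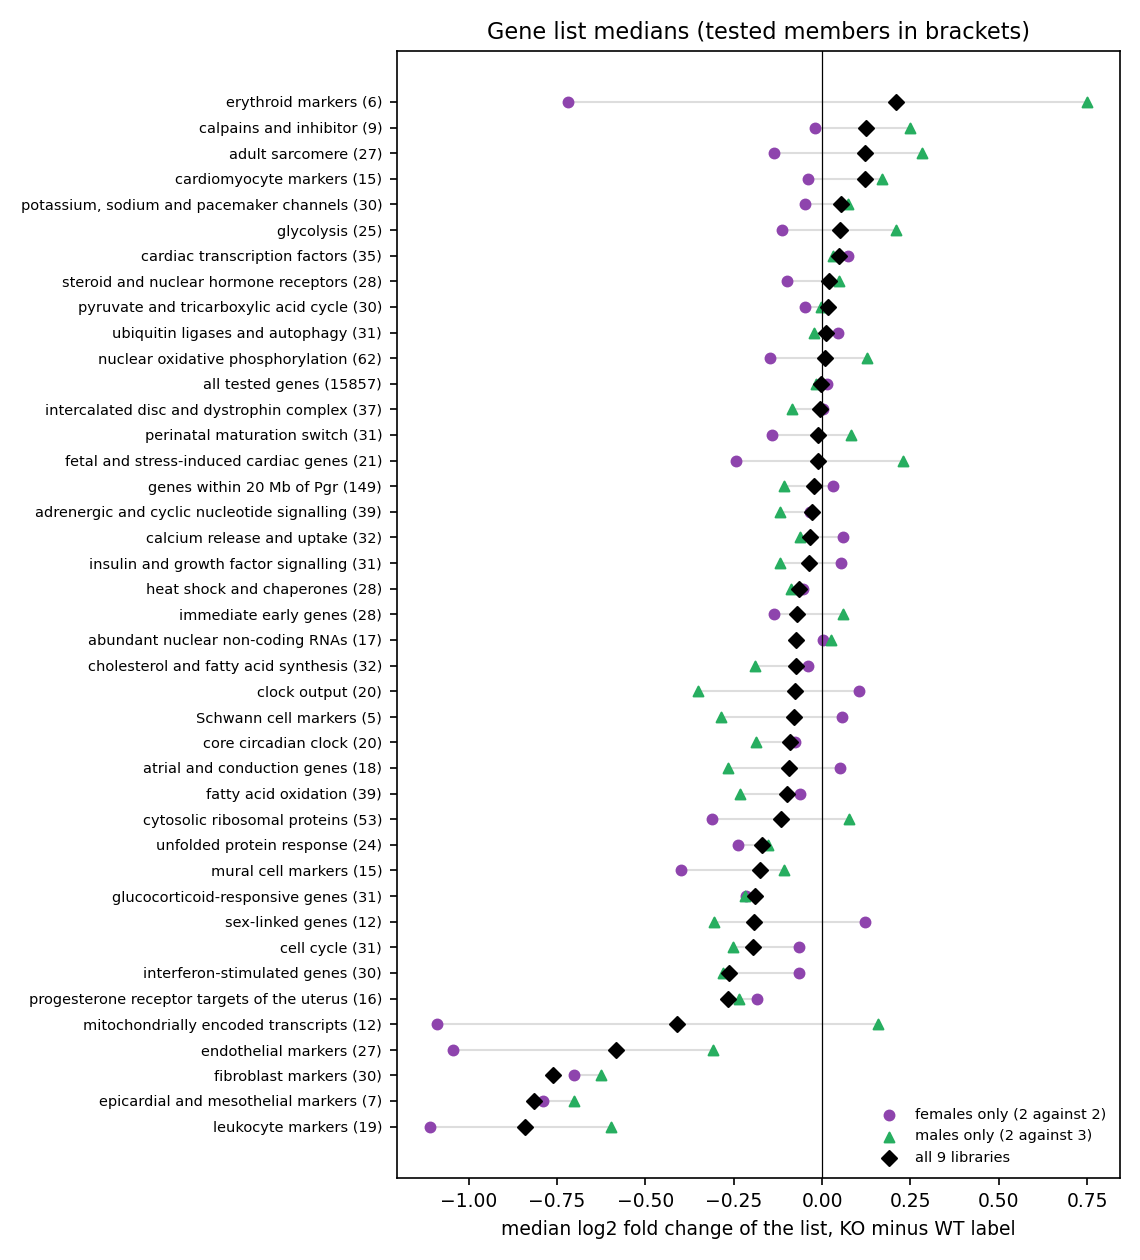
Median log2 fold change, KO minus WT label (x axis), of each gene list with at least 5 tested members (y axis, tested members in brackets), in all 9 libraries (diamonds), in females alone (circles) and in males alone (triangles). Among the diamonds the leukocyte, epicardial, fibroblast and endothelial markers lie lowest, and the mitochondrially encoded transcripts differ most between females and males among the lists below 0, at -1.09 and 0.16.

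No gene passed the edgeR test of a difference in the label effect between the sexes. In that test 0 of 15857 genes passed and 807 (5.09%) had an unadjusted p below 0.05, while DESeq2 called 10. Fitted alone, the females called 6 genes (0.0385%) and the males 0 (of 16827, with 1394 or 8.28% at an unadjusted p below 0.05). The smallest edgeR p-values belonged to Gm8189, Olfr872 and Capn3, named after their values were seen. Capn3, a muscle calpain, was at 1.56 and 1.78 CPM in the female libraries labelled KO and at 3.64 and 5.21 CPM in the female libraries labelled WT. In males it was at 4.52 and 6.59 CPM under the KO label and at 2.11, 3.02 and 2.00 CPM under the WT label. The order of the labels is reversed between the sexes without overlap in either, and the difference of -2.63 ± 0.40 on the log2 scale (SE) had an edgeR adjusted p = 0.304. Gm8189 and Olfr872 went the other way, with differences of 2.22 ± 0.33 and 2.32 ± 0.36 and the same adjusted p.

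The label effect in the 9 libraries was set beside that in the other 6, which hold more endothelial and fibroblast RNA (4 labelled KO, 2 labelled WT). The values of the other 6 and the differences come from 1 fit of all 15 libraries. In the test of their difference 0 of 16201 genes passed by edgeR, 912 (5.63%) had an unadjusted p below 0.05, and DESeq2 called 4. Pgr stood at 6.21 ± 0.74 (SE) in the other 6 libraries, Gm19324 at -1.58 ± 0.44, Samd5 at -1.28 ± 0.35 and Cep126 at -0.62 ± 0.19. These 4 had the direction they had in the 9 libraries, and of them only Pgr passed there (edgeR adjusted p = 0.00928). For Gm19324, Samd5 and Cep126 the edgeR adjusted p there was 0.910, as it was for Pdgfd and Adamts1. Pdgfd had 56.5, 88.5, 48.0 and 70.9 CPM in the other libraries labelled KO and 73.7 and 110 CPM in those labelled WT. There the labels overlap, and its log2 fold change was -0.47 ± 0.24. The difference between the library classes for Pdgfd was -1.11 ± 0.31 (unadjusted p = 0.00283, edgeR adjusted p = 0.711). Adamts1 stood at -0.33 ± 0.21 there, a difference of -0.64 ± 0.27 (edgeR adjusted p = 0.711). Cited2 and mt-Co1, the catalytic subunit of cytochrome oxidase, had differences of -1.24 ± 0.31 and -1.46 ± 0.34 (edgeR adjusted p = 0.711 for both).

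**Figure D5:**
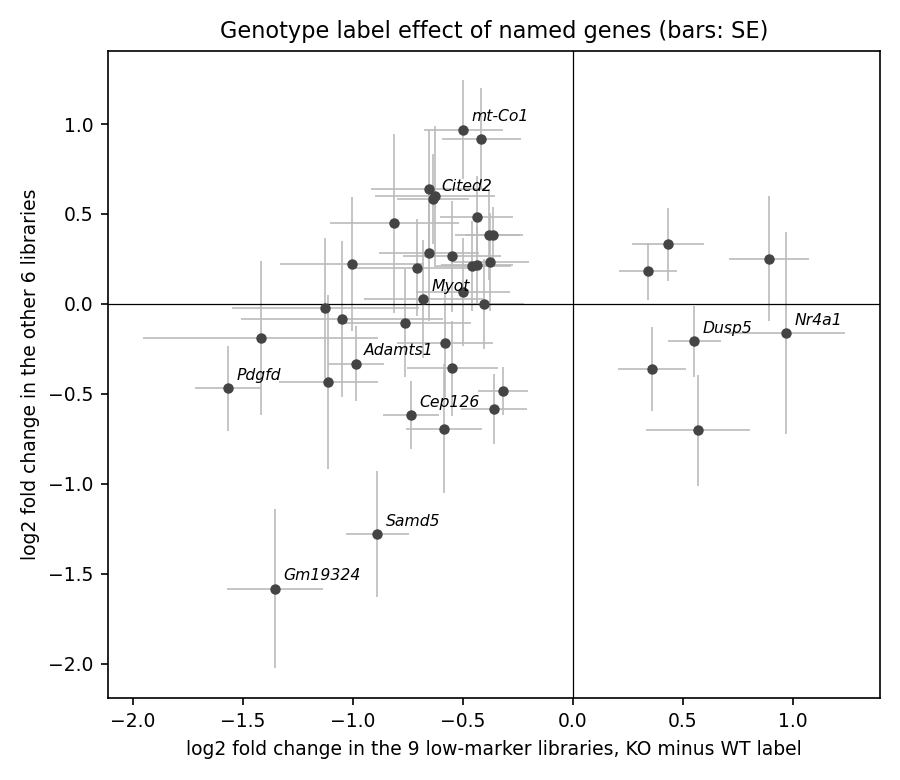
Log2 fold change, KO minus WT label, of the named genes other than Pgr in the 9 low-marker libraries (x axis) and in the other 6 libraries (y axis), with bars for the SE. Gm19324, Samd5, Cep126, Pdgfd and Adamts1 are below 0 on both axes, while Cited2 and mt-Co1 are below 0 on the x axis alone.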

How the data were processed

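RNA of Pcm1-positive nuclei was sequenced in 15 libraries. Reads were aligned with STAR 2.5.3a and counted with featureCounts 1.5.0 on GRCm38 (mm10), per the submitters' processing notes. The deposited table holds raw counts per gene for 55536 genes, with no normalisation by the authors. The gene length equals end minus start plus 1 in 100% of them, so counts span whole gene bodies, introns included. The values of the smaller deposited table of 16610 genes were not used.

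Groups follow the genotype and sex labels. Low-count genes were removed with filterByExpr and the rest fitted in R 4.3.3 with edgeR 4.0.16 (TMM scaling, robust glmQLFit and glmQLFTest, terms for sex and genotype label, 6 residual degrees of freedom). P-values were adjusted by Benjamini-Hochberg over 15857 genes. The difference between sexes was tested as an interaction in the 9 libraries, that between library classes in all 15. The SE comes from the estimate and its F statistic. Measures of whole libraries used exact permutation tests within sex. Ratios of pooled reads have exact 95% intervals that cover counting error only, since reads are not independent molecules. On simulated counts for the genotype label effect with 15857 genes, 90% of 100 genes changed 2-fold and 100% of 100 changed 4-fold were called, with 9 false calls. That simulation gave every gene the same dispersion (0.0459) and no sex effect, and changed only genes above a minimum level. It therefore does not give the share of real 2-fold changes that would be called. Alternatives used DESeq2 1.42.0, limma 3.58.1 and sva 3.50.0.

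The members and the gene lists were chosen with earlier results of these data known. Named genes are Pgr, Pcm1, Pecam1, every called gene where 5 or fewer passed, and from each list the 3 or fewer members lowest in unadjusted p. Arhgap42 and Trpc6 were named as the nearest tested genes to Pgr, and Gm32014 and Gm16485 as transcripts beside it. Dcn, Prox1, Myocd, Abcc9 and Xist were named in checks of the libraries, and Gm16685 and Vwa3a by their rank in p. Others are marked as named after their values were seen.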

Additional observations from a re-analysis of the deposited data

How the results depend on the processing

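The genotype label called 3 genes, and 2 to 4 under another scaling, limma-voom, a mean of at least 10 counts, no robust dispersion, no sex term, either residual marker term, or without WT female 2 and WT male 2. DESeq2 called 9, no low-count filter 151, females alone 6, males alone 0, 1 surrogate variable 1, and all 15 libraries 1 with and 1 without a term for marker class. Leaving out 1 library gave 1 (without KO male 4, Pgr alone) to 5 (without KO female 3). Pgr and Pdgfd kept their direction in all 27 alternatives and lost the call in 2 and 5 of them. Adamts1 kept its direction and lost the call in 22 of 27. The difference between sexes, 0 genes, became 10 with DESeq2, 178 without a filter and 0 to 12 without 1 library (2 without WT female 3, 12 without WT male 4). The difference between library classes, 0 genes, became 4 with DESeq2 and 212 without a filter, and stayed 0 without any 1 library. In all 15 libraries without a class term, the log2 fold change turned to 0.47 for Sgk1, 0.30 for Nr2f2, 0.20 for mt-Co1, 0.27 for mt-Nd6, 0.28 for mt-Rnr2, 0.63 for Scd1, 0.36 for Scd2, 0.40 for Fads2, 0.31 for H2-K1, 0.35 for B2m and 0.20 for Top2a. With the class term it turned to 0.020 for mt-Co1 and 0.061 for mt-Rnr2. These fits add 6 libraries of higher marker level. The causes of the other changes were not tested. Whether replicate numbers mark pairs could not be settled. Same-numbered libraries of the 2 labels had correlations of 0.0953, 0.105 and 0.235 in their deviations from the group mean. In a group of 2 libraries such deviations mirror each other, so this check can tell little. A replicate block called 2, 0 and 0 genes in the 3 comparisons. Thresholds of 10 or 30 CPM for Pecam1 chose the same 9 libraries, and the widest gap in Dcn chose 14. List counts below 0 under the 3 other scalings moved by at most 3 members, and those lists, and the marker term without Prox1, are alternatives chosen after seeing the data. The planned marker term sums endothelial, fibroblast and mural markers, of which Myocd and Abcc9 alone make up 1470 to 1980 CPM.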

Other observations

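Fitted alone, the 2 female libraries labelled KO against the 2 labelled WT gave 6 called genes of 15603 (0.0385%). They were Pgr and 5 short or unnamed transcripts, Rnu11, Rnu12, Snord104, Gm25099 and Gm44511, all lower under the KO label and named after their values were seen. Rnu11 and Rnu12 are RNAs of the minor spliceosome, which removes a rare class of introns, and Snord104 guides methylation of ribosomal RNA. Rnu12 was at 18.2 and 41.0 CPM in the female libraries labelled KO and at 230.4 and 161.5 CPM in those labelled WT, a log2 fold change of -2.74 ± 0.36 (SE, edgeR adjusted p = 0.0340). In males Rnu12 was at 127.5 and 207.7 CPM under the KO label and at 66.9, 18.2 and 216 CPM under the WT label, so WT male 3 was as low as KO female 3. The difference between the sexes for Rnu12 was -3.46 ± 1.38 (edgeR adjusted p = 0.811).

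Gm16685 and Vwa3a followed the 3 named runners-up in the order of p and did not pass by edgeR (adjusted p = 0.894 for both), while DESeq2 called them. Vwa3a was at 11.96, 14.97, 17.5 and 17.6 CPM under the KO label and at 10.5, 8.58, 8.37, 5.69 and 8.34 CPM under the WT label. The labels did not overlap, and its log2 fold change was 0.89 ± 0.18 (SE). Gm16685 stood at -1.11 ± 0.23.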
